A study of Homo sapiens with 21 samples.

Results

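NF-κB is a family of transcription factors that switch on inflammatory and survival genes, and 10 of its genes were followed here in cells under endoplasmic reticulum (ER) stress. They were taken by symbol from a table of 60671 human genes: the subunits NFKB1, NFKB2, RELA and RELB, the inhibitors NFKBIA, NFKBIE and TNFAIP3, and the inflammatory targets CXCL8, CXCL2 and ICAM1. The study asked how cells respond to tunicamycin, a drug that stops N-linked glycans from being added to proteins in the ER. OCI-AML3, a cell line established from an acute myeloid leukaemia, was sampled untreated at 0 h and after 4 h or 24 h with 1 μg/mL tunicamycin or with DMSO, the solvent. HEK293T, a human embryonic kidney line carrying the SV40 large T antigen, was sampled after 24 h with the same dose of tunicamycin or with DMSO. The 7 groups held 3 libraries of polyadenylated RNA each. Each tissue is represented by 1 line. Nothing in the labels says that the replicates came from separate cultures, so the p-values measure the spread between libraries, which may be technical.

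In resting cells, NF-κB dimers are held in the cytoplasm by IκB proteins such as those encoded by NFKBIA (IκBα) and NFKBIE (IκBε). Signals from cytokine and microbial receptors activate the IκB kinase (IKK) complex, IκB is degraded and the dimers enter the nucleus. There they bind κB motifs and raise, among others, their own inhibitors NFKBIA and TNFAIP3, which makes the response self-limiting. In myeloid cells the pathway is known for driving chemokines that attract neutrophils, such as CXCL8. ER stress is known to reach NF-κB through the sensors of the unfolded protein response (UPR), partly because a pause in protein synthesis lowers the short-lived IκB proteins.

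The promoters of several of these genes carry κB motifs, and the stretches below show where they lie in the genes whose levels are described next. RefSeq promoter windows of build GRCh38.p14 were found for 8 of the 10 genes, NFKBIE and RELB being the others. The stretches run 5′ to 3′ on the strand of the gene and end just before the gene start annotated by GENCODE. Capitals mark matches to the κB consensus or to the shorter form GGANNTTCC, read on either strand. They cover chr4:102501109-102501329 (plus strand) for NFKB1, chr14:35404750-35404999 (minus strand) for NFKBIA, chr6:137867009-137867213 (plus strand) for TNFAIP3, chr4:73740319-73740518 (plus strand) for CXCL8 and chr19:10270870-10271092 (plus strand) for ICAM1.
NFKB1: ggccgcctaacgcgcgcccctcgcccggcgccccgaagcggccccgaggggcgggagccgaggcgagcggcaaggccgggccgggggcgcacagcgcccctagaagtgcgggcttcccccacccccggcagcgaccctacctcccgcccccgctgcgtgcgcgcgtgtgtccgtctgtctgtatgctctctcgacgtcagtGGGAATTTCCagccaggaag
NFKBIA: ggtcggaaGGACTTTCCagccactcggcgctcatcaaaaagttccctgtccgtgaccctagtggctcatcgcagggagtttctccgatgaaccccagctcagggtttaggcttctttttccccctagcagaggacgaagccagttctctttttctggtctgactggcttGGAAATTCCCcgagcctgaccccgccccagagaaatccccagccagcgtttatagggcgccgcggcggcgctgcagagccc
TNFAIP3: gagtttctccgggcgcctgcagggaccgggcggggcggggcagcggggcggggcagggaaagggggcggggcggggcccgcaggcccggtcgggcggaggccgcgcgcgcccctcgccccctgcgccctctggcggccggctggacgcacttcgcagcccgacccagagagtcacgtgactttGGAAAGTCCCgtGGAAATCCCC
CXCL8: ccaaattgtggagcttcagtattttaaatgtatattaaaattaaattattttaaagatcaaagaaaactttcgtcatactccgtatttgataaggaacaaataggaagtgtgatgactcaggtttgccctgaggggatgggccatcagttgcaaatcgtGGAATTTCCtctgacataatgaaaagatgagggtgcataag
ICAM1: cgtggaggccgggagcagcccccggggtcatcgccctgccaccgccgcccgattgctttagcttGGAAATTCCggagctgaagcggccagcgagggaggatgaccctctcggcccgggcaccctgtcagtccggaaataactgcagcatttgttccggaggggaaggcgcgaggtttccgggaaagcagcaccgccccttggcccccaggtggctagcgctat

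Across the 250 bases before the RefSeq starts, the κB consensus was found in 6 of the 12 windows of these 8 genes (NFKB1, NFKB2, NFKBIA, TNFAIP3 and CXCL2), and it occurs in 5.2% of 35093 such windows of all genes. The shorter form GGANNTTCC was found in 7 of the 12 windows, those of CXCL8 and ICAM1 among them, often overlaps the consensus, and occurs in 3.85% of all windows. It was settled on after a first search of these same promoters, so its count is a description and is not read against that share. In TNFAIP3 the consensus matches begin 67 and 55 bases before the start, and in NFKBIA the match begins 81 bases before it. The match of CXCL2, GGGAATTTCC, is the same 10 bases as that of NFKB1 and lies 78 bases before its start. NFKB2 has 3 annotated starts, and among its matches GGGAATTCCC lies before the second and GGGACTTTCC before the third. RELA held no match in either of its windows. The C/EBP-ATF response element TGATGNAAN, searched on both strands, was in 0 of the 8 genes and in 3.13% of all windows. A match of letters is a description of the sequence and not evidence of binding.

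**Figure D1:**
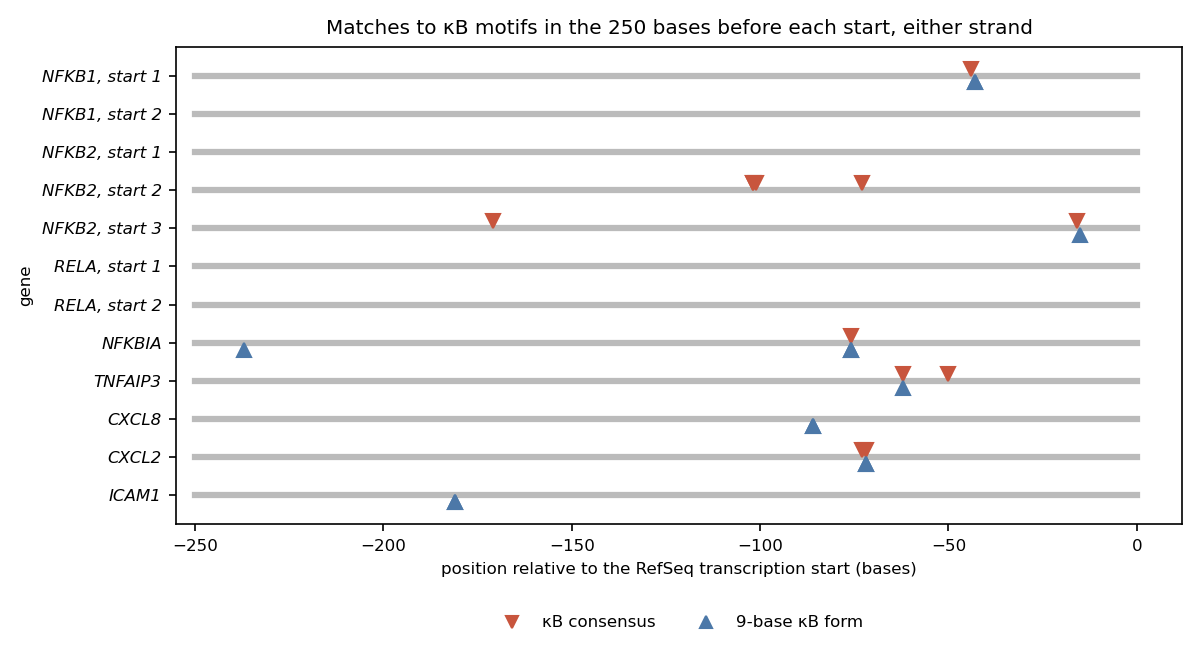
Positions of κB motif matches (x axis, bases relative to the RefSeq transcription start) in the 250 bases before each annotated start of 8 genes (y axis). Downward triangles mark the consensus and upward triangles the 9-base form; RELA has no match, while in TNFAIP3 the matches begin 67 and 55 bases before the start.

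The counts of a library summed to between 13838466 and 19961798 (median 16657737). Levels are given as CPM, the counts of a gene scaled by the TMM-adjusted size of its library, and a count of 0 allows up to 3 counts, which is 0.137 to 0.231 CPM in these libraries. The 7 UPR genes taken as a check of the treatment (among them HSPA5 and DDIT3) rose past both thresholds in all 3 comparisons of tunicamycin with DMSO. All 8 myeloid markers, SPI1 and MPO among them, were above the floor in every OCI-AML3 library, with summed levels of 1849 to 3949 CPM, against 10.6 to 14.3 CPM in HEK293T, where only 1 of the 8 was. The 6 HEK293T markers summed to 372.9 to 434.2 CPM in HEK293T and to 3.16 to 5.41 CPM in OCI-AML3. Of the 4 lymphoid markers, the summed level stayed between 0.555 and 1.58 CPM. These are bulk samples, in which fewer cells of a type and less RNA per cell cannot be told apart.

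Of the 10 genes, 9 passed the filter on low counts and were tested, together with 14012 genes in all. CXCL2, a chemokine for neutrophils, did not pass it. In OCI-AML3 CXCL2 had 1 to 19 counts a library and the other genes 42 or more, while in HEK293T the 3 inflammatory targets lay at the limit of detection. CXCL8 had 1, 0 and 5 counts in the DMSO libraries of HEK293T and 5, 3 and 2 with tunicamycin, ICAM1 had 0, 5 and 2 and then 0, 0 and 2, and CXCL2 had 0, 3 and 4 and then 4, 4 and 1. No fold change is given for them in HEK293T. Per kilobase of annotated exon, the level in untreated OCI-AML3 cells was highest for NFKBIE at 36.8 ± 1.55 CPM per kb (SD, n = 3). It was 24.1 ± 3.42 for CXCL8, 13.9 ± 0.542 for RELA and 12 ± 0.121 for NFKBIA. NFKB1, NFKB2, RELB and TNFAIP3 lay between 3.07 and 4.62 CPM per kb, ICAM1 at 1.27 and CXCL2 at 0.252. The length used is that of all annotated exons together, which is longest for NFKB1 at 15679 bases and lowers its value.

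**Figure D2:**
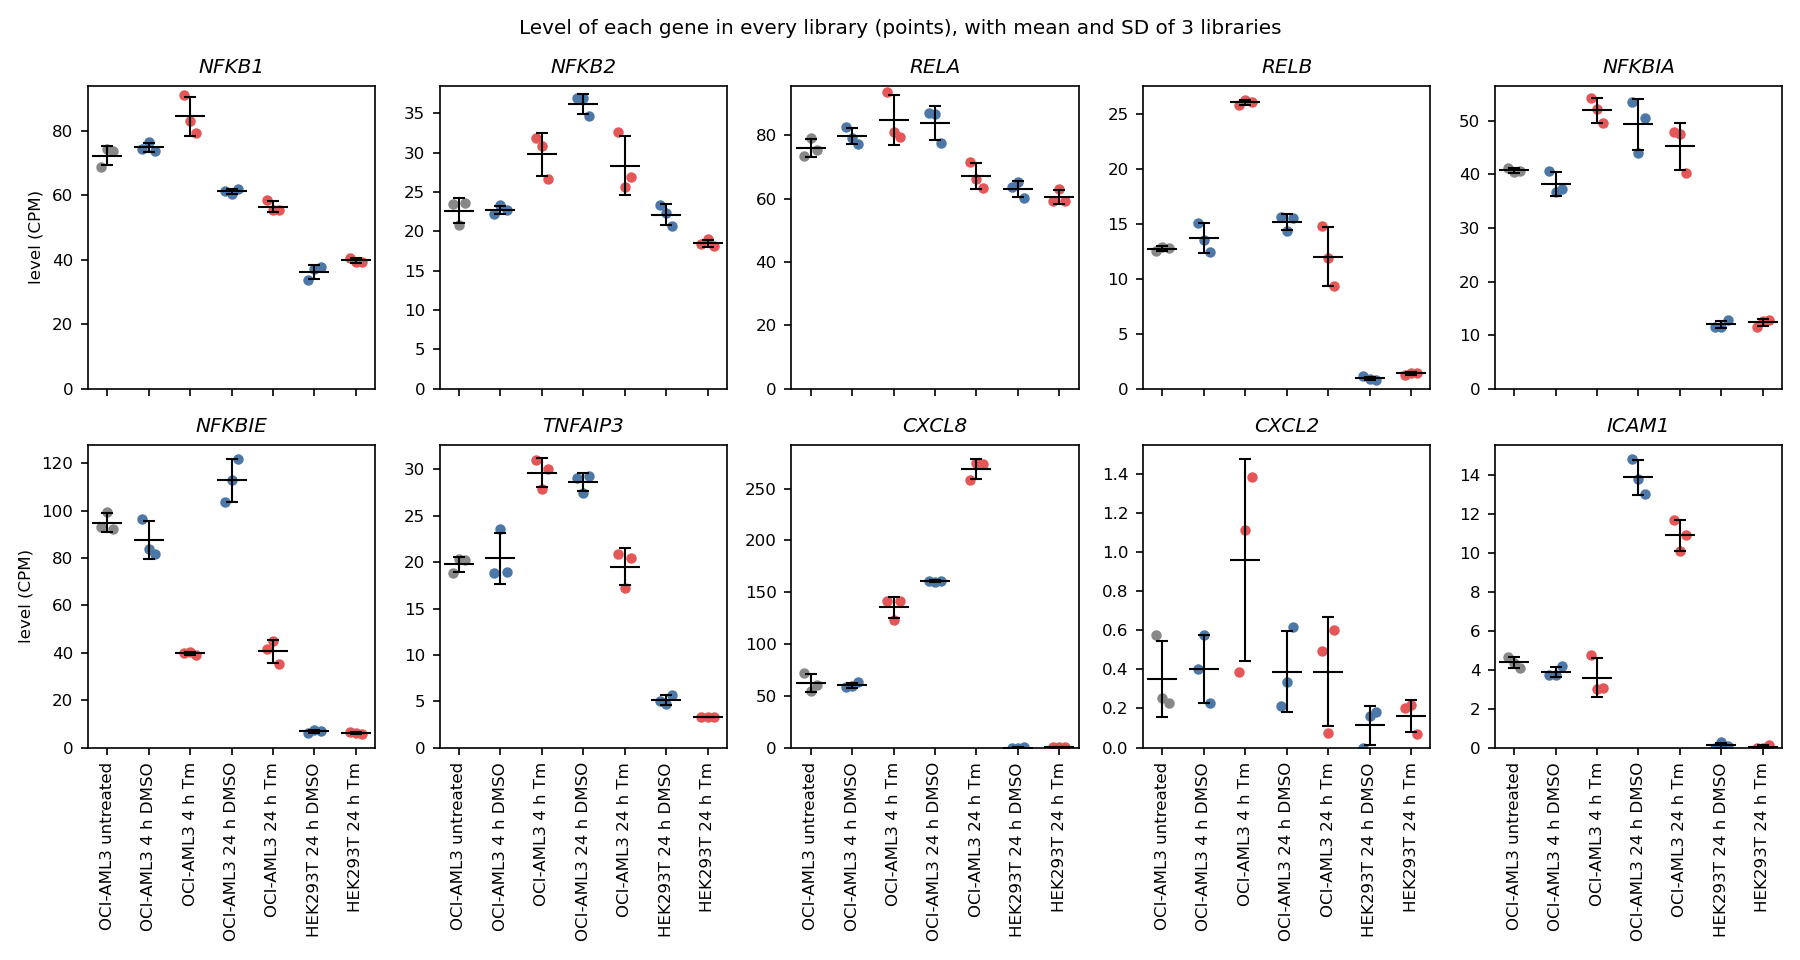
Level of each of the 10 genes (y axis, CPM, each panel from 0) in every library of the 7 groups (x axis). Points are libraries (grey untreated, blue DMSO, red tunicamycin) and bars the mean and SD of 3 libraries. NFKBIE is at 39.1 to 40.3 CPM with tunicamycin at 4 h against 81.7 to 96.6 CPM with DMSO, and CXCL8 is highest with tunicamycin at 24 h.

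At 4 h, tunicamycin raised 6 of the 9 tested genes in OCI-AML3 and lowered NFKBIE. At 24 h it lowered 5 and raised CXCL8, each change being against DMSO of the same time. Of the 6, NFKB1 passed in 8 of 14 alternatives, and of the 5, RELB passed in 5 of 14. These counts use an adjusted p of at most 0.05 in edgeR's quasi-likelihood test, with which 18.5% of all tested genes were higher and 18.9% lower at 4 h, and 23.5% higher and 27.7% lower at 24 h. Over the 9 genes the log2 fold changes had a median of 0.39 at 4 h and -0.34 at 24 h, beside -0.02 and -0.01 over all genes tested. With a log2 fold change above 1 or below -1 asked for as well, CXCL8 and NFKBIE were called at 4 h (2 of 9, against 4.92% of all genes) and NFKBIE alone at 24 h (1 of 9, against 6.32%). In HEK293T the change could be measured for 7 of the 9, since CXCL8 and ICAM1 passed the filter through OCI-AML3 alone. Of the 7, 2 were lower and 0 were higher, against 13.1% lower and 12.6% higher among all genes, which also include genes near 0 in this line. None of the 7 was called there (0 by edgeR, limma voom and DESeq2, with 4 at an unadjusted p under 0.05), against 2.13% of all genes. Groups of 3 libraries limit these tests, and the 3 comparisons have separate controls.

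**Figure D3:**
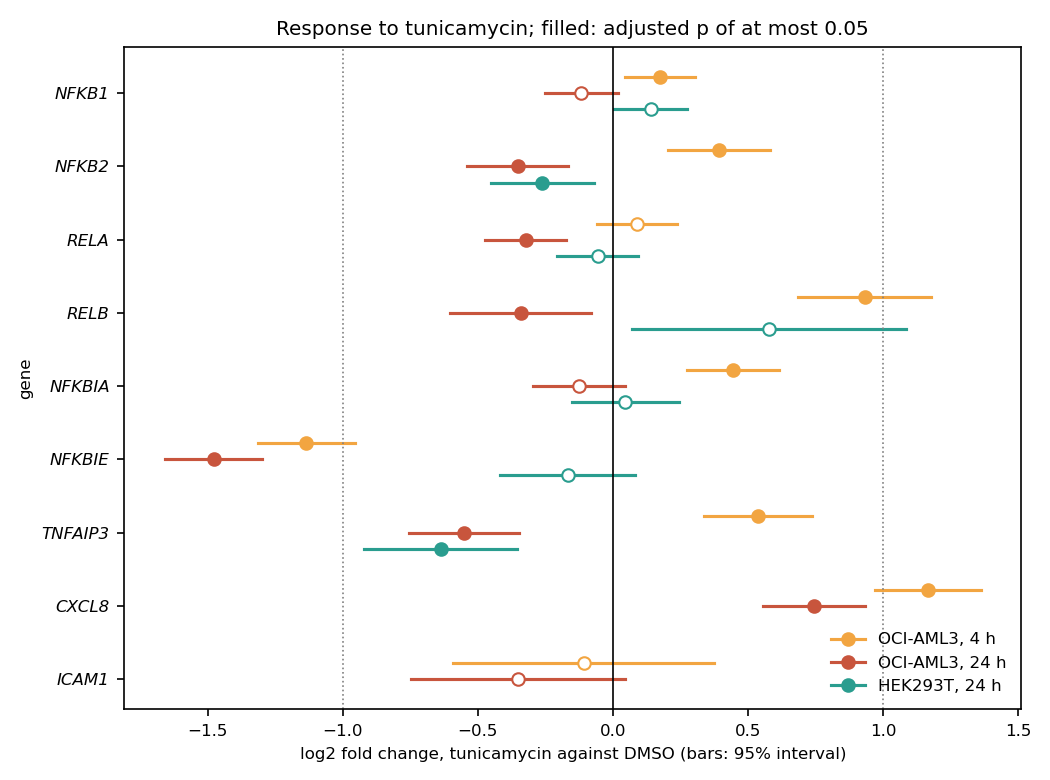
Log2 fold change of tunicamycin against DMSO (x axis) for 9 genes (y axis) in OCI-AML3 at 4 h and 24 h and in HEK293T at 24 h. Points are estimates of 3 against 3 libraries, bars 95% intervals, filled points an adjusted p of at most 0.05, and dotted lines log2 fold changes of -1 and 1. CXCL8 and ICAM1 in HEK293T, with 0 to 5 counts a library, are left out. RELB, TNFAIP3, NFKB2 and NFKBIA lie right of 0 at 4 h and left of it at 24 h in OCI-AML3.

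Among the subunits, RELB (chr19:45001461-45038192), the partner of p52 in the non-canonical pathway, moved most at 4 h. It was at 15.1, 13.5 and 12.4 CPM in the DMSO libraries and at 25.8, 26.2 and 26.1 CPM in the tunicamycin libraries. The 3 treated libraries lay close together and well above every control. The log2 fold change was 0.93 ± 0.119 (SE, adjusted p = 1.55e-06), just under the fold threshold, and 1.02 without the DMSO replicate 1. At 24 h RELB was at 15.6, 14.3 and 15.5 CPM with DMSO and at 14.8, 11.9 and 9.36 CPM with tunicamycin. These groups overlap, and the treated libraries are spread more widely than at 4 h. The log2 fold change of -0.34 ± 0.126 (adjusted p = 0.0277) did not pass the test in 9 of 14 alternatives. Over these the adjusted p ran from 0.003 to 0.37. It was -0.14 (adjusted p = 0.37) without tunicamycin replicate 3 and did not pass either without tunicamycin replicate 2 or any of the DMSO replicates. In order of level, RELB was highest with tunicamycin at 4 h, and the other 4 OCI-AML3 groups overlapped their neighbours.

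NFKB2 (chr10:102394110-102402524), which encodes the p100 precursor of p52, rose at 4 h by less than RELB. At 24 h it was lower than with DMSO of the same time, by about as much as it rose at 4 h. With DMSO at 4 h it was at 22.2, 23.3 and 22.7 CPM, and with tunicamycin at 31.9, 30.8 and 26.7 CPM. At 24 h the DMSO libraries were at 36.9, 37.0 and 34.7 CPM and the tunicamycin libraries at 32.6, 25.6 and 26.9 CPM. The groups do not overlap at either time, with the treated libraries above at 4 h and below at 24 h. The log2 fold changes were 0.39 ± 0.091 (adjusted p = 0.00154) and -0.35 ± 0.090 (adjusted p = 0.00231). The level with DMSO at 24 h was the highest of the 7 groups, and untreated, 4 h DMSO and HEK293T DMSO libraries were close to each other, at means of 22.6, 22.7 and 22.2 CPM.

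NFKB1 and RELA encode the p105 precursor of p50 and the p65 subunit, the classical dimer. NFKB1 (chr4:102501330-102617302) was at 74.5, 76.6 and 73.8 CPM with DMSO at 4 h and at 91.1, 83.2 and 79.3 CPM with tunicamycin. Its treated libraries were all higher, with a log2 fold change of 0.17 ± 0.063 (adjusted p = 0.0334). NFKB1 did not pass the test without DMSO replicate 3, tunicamycin replicate 1 or tunicamycin replicate 2, with adjusted p of 0.0904, 0.198 and 0.0562. The same held without TMM scaling (adjusted p = 0.0587), with every gene of at least 1 count tested (0.408) and in the fit of only the groups compared (0.0746). It thus passed in 8 of its 14 alternatives (0.0192 to 0.408). At 24 h the log2 fold change of NFKB1 was -0.12 ± 0.064 (adjusted p = 0.136), from means of 61.3 ± 0.686 CPM with DMSO and 56.5 ± 1.73 CPM with tunicamycin (SD, n = 3). RELA (chr11:65653599-65663090) was at 82.5, 79.2 and 77.4 CPM with DMSO and at 93.8, 81.0 and 79.4 CPM with tunicamycin at 4 h, which overlap. Its 4 h log2 fold change was 0.09 (95% interval -0.06 to 0.24, adjusted p = 0.352). RELA fell at 24 h, from 87.1, 86.7 and 77.6 CPM to 71.5, 66.3 and 63.4 CPM, with a log2 fold change of -0.32 ± 0.072 (adjusted p = 0.000757). An exon of RELA overlaps the antisense gene RELA-DT, which held 13 to 42 counts a library, and the sources do not say whether counting used the strand.

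NFKBIE (chr6:44258166-44265788) encodes IκBε and was lower with tunicamycin at both times, whereas the other 2 inhibitors were higher at 4 h. At 4 h it was at 96.6, 84.0 and 81.7 CPM with DMSO and at 39.9, 40.3 and 39.1 CPM with tunicamycin. At 24 h it was at 103.6, 113.0 and 121.9 CPM with DMSO and at 41.5, 45 and 35.4 CPM with tunicamycin. The 6 treated libraries thus lay between 35.4 and 45 CPM and the 9 untreated or DMSO libraries of OCI-AML3 between 81.7 and 121.9 CPM. The log2 fold changes were -1.14 ± 0.086 (adjusted p = 4.47e-10) and -1.48 ± 0.087 (adjusted p = 4.9e-12), and both were called in all 14 alternatives run for each. The tunicamycin levels at 4 h and 24 h, with means of 39.8 ± 0.636 and 40.6 ± 4.89 CPM (SD, n = 3), overlapped each other.

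NFKBIA (chr14:35401079-35404749), an IκB that NF-κB itself induces, rose at 4 h from 40.7, 36.7 and 37.2 CPM to 54.2, 52.2 and 49.5 CPM. The treated libraries were all above the controls, and the log2 fold change was 0.44 ± 0.082 (adjusted p = 0.000165). At 24 h it was at 53.4, 44 and 50.5 CPM with DMSO and at 47.9, 47.6 and 40.2 CPM with tunicamycin, which overlap. The log2 fold change there was -0.13 (95% interval -0.30 to 0.05, adjusted p = 0.213). Its 5 OCI-AML3 groups each overlapped the next in order of level.

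TNFAIP3 (chr6:137867214-137883314) encodes A20, a ubiquitin-editing enzyme that shuts off signalling to IKK. It was at 18.8, 23.6 and 18.9 CPM with DMSO at 4 h and at 31.0, 27.9 and 30.1 CPM with tunicamycin. At 24 h the order was turned, with 29.1, 27.5 and 29.3 CPM in DMSO and 20.9, 17.2 and 20.4 CPM in tunicamycin. The groups do not overlap at either time. The log2 fold changes were 0.54 ± 0.096 (adjusted p = 0.000111) and -0.55 ± 0.097 (adjusted p = 6.86e-05). The level with tunicamycin at 24 h overlapped those of untreated and 4 h DMSO cells, and the level with tunicamycin at 4 h overlapped that with DMSO at 24 h. Exons of TNFAIP3 overlap the antisense gene WAKMAR2, which held 0 to 31 counts a library.

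CXCL8 (chr4:73740519-73743716), the chemokine interleukin 8, was the most abundant of the 3 inflammatory targets and rose at both times. At 4 h it was at 58.8, 59.1 and 63.1 CPM with DMSO and at 141.1, 123.6 and 141.1 CPM with tunicamycin. At 24 h it was at 161.2, 159.9 and 160.9 CPM with DMSO and at 258.0, 274.8 and 273.8 CPM with tunicamycin. The treated libraries were above their own controls at each time, but those at 4 h were below the DMSO libraries at 24 h. The log2 fold changes were 1.16 ± 0.095 (adjusted p = 1.37e-09) and 0.74 ± 0.091 (adjusted p = 6.67e-07).

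ICAM1 (chr19:10271093-10286615), an adhesion molecule for leukocytes, did not pass the test at either time. With DMSO at 4 h it was at 3.72, 3.71 and 4.18 CPM and with tunicamycin at 4.73, 2.99 and 3.05 CPM. The treated libraries lie on both sides of the controls, and the log2 fold change was -0.11 (95% interval -0.59 to 0.37, adjusted p = 0.753). At 24 h it was at 14.8, 13.8 and 13 CPM with DMSO and at 11.7, 10.1 and 10.9 CPM with tunicamycin. Here every treated library was lower, with a log2 fold change of -0.35 (95% interval -0.75 to 0.05, adjusted p = 0.131). Exons of ICAM1 overlap the antisense genes LIMASI and ICAM4-AS1, which held up to 3 and up to 37 counts a library.

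CXCL2 (chr4:74097040-74099196) was near the limit of detection throughout. It had 6, 9 and 4 counts with DMSO and 6, 19 and 19 counts with tunicamycin at 4 h, and 3, 5 and 8 and then 7, 1 and 11 counts at 24 h. Its highest level was 1.38 CPM and the groups overlap at both times. In a fit of every gene with at least 1 count, its log2 fold change at 4 h was 1.21 (adjusted p = 0.149). Its paralogs CXCL1 and CXCL3 have very similar transcripts, between which the authors' counting could divide reads.

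The effect of tunicamycin in OCI-AML3 was lower at 24 h than at 4 h in the estimates of all 9 tested genes, and 8 of them passed the test of the difference, ICAM1 not. The test was of the interaction, which 35.3% of all genes passed at an adjusted p of at most 0.05. RELB differed most, by -1.27 ± 0.173 on the log2 scale (adjusted p = 9.04e-06), followed by TNFAIP3 with -1.09 ± 0.137 (adjusted p = 3.42e-06). These 2 of 9 were past the fold threshold as well, against 6.06% of all genes. TNFAIP3 was past both thresholds in 18 of 20 alternatives. It was at -0.97 without tunicamycin replicate 2 of 24 h, and it also fell short without TMM scaling. NFKB2 differed by -0.75 ± 0.128 (adjusted p = 0.000116) and NFKBIA by -0.57 ± 0.116 (adjusted p = 0.000656). RELA, with -0.41 ± 0.101 (adjusted p = 0.00317), and CXCL8, with -0.42 ± 0.130 (adjusted p = 0.0154), differed less. CXCL8 did not pass the test without TMM scaling, at -0.32 (adjusted p = 0.073, the highest of its 20 alternatives, which start at 0.00628). NFKBIE differed by -0.34 ± 0.121 (adjusted p = 0.0324) and NFKB1 by -0.29 ± 0.090 (adjusted p = 0.0154). NFKBIE and NFKB1 did not pass in 14 and 7 of 20 alternatives, where their adjusted p reached 0.163 and 0.175. For ICAM1 the difference was -0.24 (95% interval -0.87 to 0.38, adjusted p = 0.565).

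The DMSO controls themselves differed between 24 h and 4 h, which bears on how the levels at 24 h read. No untreated cells were sampled at 24 h, so time in culture and time in DMSO cannot be told apart. DMSO at 24 h against DMSO at 4 h gave a log2 fold change of 1.84 ± 0.209 for ICAM1 (adjusted p = 4.41e-07) and 1.41 ± 0.095 for CXCL8 (adjusted p = 1.32e-10). These 2 of 9 were called, against 4.15% of all genes. NFKB2 rose by 0.67 ± 0.091 and TNFAIP3 by 0.49 ± 0.097, with adjusted p of 4.25e-06 and 0.000355. NFKBIA and NFKBIE each rose by 0.37 ± 0.083 and NFKB1 fell by 0.29 ± 0.064, all at an adjusted p of at most 0.00117. RELA and RELB did not pass the test, with adjusted p of 0.432 and 0.355. DMSO at 4 h against untreated cells gave no call (0 of 9 by edgeR, limma voom and DESeq2, with 0 at an unadjusted p under 0.05), against 0.00% of all genes. The ratios at 24 h are set against controls in which CXCL8, ICAM1, NFKB2, TNFAIP3, NFKBIA and NFKBIE stood above their level at 4 h. NFKB2 with tunicamycin at 24 h, at a mean of 28.4 CPM, was above its mean of 22.7 CPM with DMSO at 4 h. TNFAIP3 with tunicamycin at 24 h, at 19.5 CPM, overlapped its level with DMSO at 4 h, at 20.4 CPM. RELB also overlapped its level with DMSO at 4 h, while RELA and NFKBIE were below theirs. Myeloid markers moved as well. Mean CPM with DMSO at 4 h and 24 h was 685.1 and 1582.2 for ITGB2, 75.9 and 129.5 for CSF3R, and 588.5 and 885.9 for CEBPA. SPI1 and PTPRC were also higher at 24 h, while LYZ (134.6 and 97.4), CD33 and MPO were lower. A link with these changes was not tested.

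In HEK293T, TNFAIP3 and NFKB2 were lower with tunicamycin at 24 h. TNFAIP3 was at 4.98, 4.66 and 5.71 CPM with DMSO and at 3.28, 3.32 and 3.29 CPM with tunicamycin, without overlap. The log2 fold change was -0.64 ± 0.136 (adjusted p = 0.00132). NFKB2 was at 23.4, 22.3 and 20.7 CPM with DMSO and at 18.4, 19 and 18.1 CPM with tunicamycin. Its log2 fold change was -0.26 ± 0.092 (adjusted p = 0.0402), which did not pass the test in 6 of 14 alternatives. These include leaving out DMSO replicate 1 or 2 or any of the tunicamycin replicates, and the adjusted p ran from 0.0152 to 0.148 over the 14. RELB was at 1.13, 0.910 and 0.777 CPM with DMSO and at 1.26, 1.47 and 1.48 CPM with tunicamycin, from 17 to 27 counts a library. Every treated library was higher, but the log2 fold change of 0.58 ± 0.244 did not pass the test (adjusted p = 0.0878). NFKBIE was at 6.26, 7.50 and 6.99 CPM with DMSO and at 6.46, 6.05 and 5.91 CPM with tunicamycin, which overlap. The log2 fold changes of NFKBIE, NFKBIA and RELA were -0.17 (95% interval -0.42 to 0.08), 0.05 (-0.15 to 0.25) and -0.06 (-0.21 to 0.09). NFKB1, at 0.14 (adjusted p = 0.127), did not pass the test either.

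The effect at 24 h differed between the lines for 3 of the 7 genes measured in both, at an adjusted p of at most 0.05, against 26.8% of all genes. NFKBIE differed most, by 1.31 ± 0.149 (HEK293T minus OCI-AML3, adjusted p = 1.13e-06). It was the only gene of the 7 past the fold threshold as well, against 4.89% of all genes, and it was called in all 20 alternatives. RELB differed by 0.92 ± 0.275 (adjusted p = 0.0165), with adjusted p from 0.0031 to 0.0843 over 20 alternatives, the highest without DMSO replicate 3 of HEK293T. It was low in HEK293T, at 17 to 27 counts a library, and passed the filter with OCI-AML3 libraries, so nothing is read from its difference. The difference of RELB was past the fold threshold, at 1.04 and 1.02, without tunicamycin replicate 1 of OCI-AML3 or DMSO replicate 1 of HEK293T. NFKB1 differed by 0.26 ± 0.092 (adjusted p = 0.0427), which did not hold in 18 of 20 alternatives. For TNFAIP3, lower in both lines, the difference was -0.09 (95% interval -0.43 to 0.26), and for NFKB2 it was 0.09 (95% interval -0.18 to 0.36), with a sign that turned without the TMM scaling. RELA and NFKBIA, at 0.27 (adjusted p = 0.0559) and 0.17 (adjusted p = 0.341), did not pass the test. With the replicate block, and in no other alternative, RELA passed it (adjusted p = 0.0331).

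The lines also differed in their starting levels. The filter asked for 8 libraries, which the 6 HEK293T libraries cannot supply alone, so a gene low in HEK293T was tested only where it was higher in OCI-AML3. CXCL8 and ICAM1 passed through OCI-AML3 alone. RELB was low in HEK293T, at 17 to 27 counts a library, though above the floor of 3 counts, and also needed OCI-AML3 libraries to pass. The 6 calls among the 9 tested genes, against 45.2% of all genes, are given without reading anything from that count. NFKBIE was at a mean of 6.92 ± 0.623 CPM in HEK293T and 112.8 ± 9.14 CPM in OCI-AML3 (SD, n = 3), a log2 fold change of -4.03 ± 0.102 (adjusted p = 2.52e-20). RELB was at 0.939 ± 0.177 and 15.1 ± 0.755 CPM (SD, n = 3). TNFAIP3 and NFKBIA were lower by log2 fold changes of -2.48 ± 0.109 and -2.04 ± 0.090. CXCL8 and ICAM1 stood at means of 160.7 and 13.9 CPM in OCI-AML3 and at 0.0933 and 0.120 CPM in HEK293T. NFKB1, NFKB2 and RELA were nearer to each other in the lines, with log2 fold changes of -0.76, -0.71 and -0.41. Without TMM scaling the median of all genes moved from -0.01 to 0.33 in this comparison, and RELA was then at -0.07 (adjusted p = 0.348, the highest of its 14 alternatives, which start at 3.15e-10). The myeloid markers differ between the lines as given above, and line and tissue of origin cannot be told apart.

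Beyond the 10 genes, 72 of 73 further genes of the pathway were matched and 57 tested. CCL3, IER3 and BCL2A1 reached 1 CPM in 8 to 15 libraries but in only 3 to 6 of the 12 without tunicamycin. They passed the filter of 8 through tunicamycin libraries, which in part fixed their direction, and were set aside from the counts in OCI-AML3 after their values were seen. Of the other 54, 14 rose and 10 fell at 4 h, and 21 rose and 12 fell at 24 h, with median log2 fold changes of -0.03 and 0.08. With the 3 genes included, 17 and 24 of 57 were higher. Over all genes, 18.5% were higher and 18.9% lower at 4 h, and 23.5% higher and 27.7% lower at 24 h, so the falls at 4 h are near the share of all genes. In HEK293T 5 of the 57 rose and 8 fell, against 12.6% and 13.1% of all genes, but only 42 of the 57 were above 3 counts in every library there, and the rest include PLAU and TNFAIP2 among the falls. The 3 genes set aside were the only ones of the 57 called at 4 h, where 4.92% of all genes were, and nothing is read from that count. BCL2A1, a survival factor of the BCL2 family, was at a mean of 0.787 ± 0.366 CPM with DMSO and 2.89 ± 0.709 CPM with tunicamycin at 4 h (SD, n = 3). CCL3, a macrophage chemokine, was at 0.458 ± 0.102 and 1.19 ± 0.390 CPM, and IER3, an early response gene, at 0.594 ± 0.349 and 1.47 ± 0.206 CPM. All 3 genes were low, with 6 to 17 counts in the DMSO libraries of 4 h.

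At 24 h, 4 of the 54 were called, which is 7.41% and near the 6.32% of all genes, and the 3 genes set aside were called as well. Without CCL3, the cytokines and chemokines had 4 of 6 tested members higher and 0 lower, with a median of 0.70, where 23.5% of all genes were higher. At 4 h these 6 had 0 higher and 1 lower, with a median of -0.03. Of the 17 genes on this list only 7 passed the filter, so changes among the rest are not counted. CCL2, a monocyte chemokine, went from a mean of 4.05 ± 0.955 to 16.2 ± 0.554 CPM (SD, n = 3), a log2 fold change of 2.01 ± 0.182 (adjusted p = 1.95e-08). LTB, a lymphotoxin, was called with 1.01 ± 0.237. PLAU, the urokinase gene, was the only member called lower, with -1.02 ± 0.226 (adjusted p = 0.000693). TLR4, the receptor for bacterial lipopolysaccharide, went from 23.5 ± 1.42 to 58.3 ± 7.34 CPM (SD, n = 3), a log2 fold change of 1.31 ± 0.110 (adjusted p = 1.83e-08).

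The other lists are given by their counts, beside 18.5% of all genes higher and 18.9% lower at 4 h and 23.5% and 27.7% at 24 h. Of the 10 genes of the IKK complex and its upstream kinases, 1 rose and 1 fell at 4 h, and 5 rose and 2 fell at 24 h. Of 16 tested receptors and adaptors, 4 rose and 5 fell at 4 h, and 5 rose and 5 fell at 24 h, with TLR4 as 1 call of 16, a share near the 6.32% of all genes. Of 8 tested negative regulators, 3 rose and 1 fell at 4 h, and 3 rose and 3 fell at 24 h. Of the 5 other subunit and IκB genes, 2 rose and 1 fell at 4 h, and 1 rose and 1 fell at 24 h. Of 9 survival and other targets, without IER3 and BCL2A1, 4 rose and 1 fell at 4 h, and 3 rose and 1 fell at 24 h. In HEK293T the 2 calls, PLAU and TNFAIP2, passed the filter through OCI-AML3 and are not read as changes, since both reached 3 counts or fewer in a tunicamycin library. PLAU had 12 to 23 counts with DMSO and 3 to 7 with tunicamycin, and TNFAIP2 had 10 to 14 and 2 to 7. The 7 tested cytokines and chemokines passed the filter through OCI-AML3 and had 0 to 5 counts a library in HEK293T, where their change could not be measured.

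**Figure D4:**
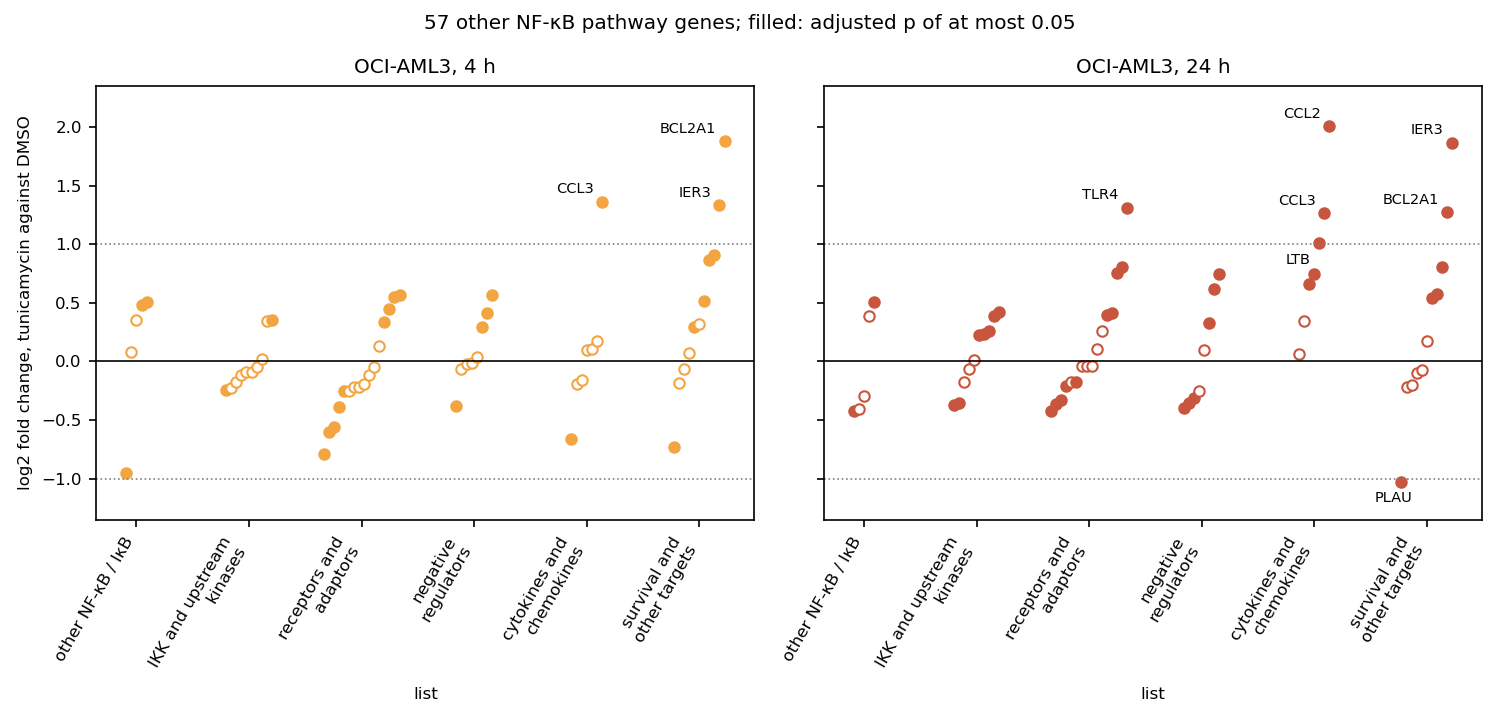
Log2 fold change of tunicamycin against DMSO (y axis) for 57 further genes of the pathway in 6 lists (x axis), in OCI-AML3 at 4 h (left) and 24 h (right). Points are genes, ordered by value within a list, filled where the adjusted p was 0.05 or less, and named where also past a log2 fold change of 1 or -1 (dotted lines). The named genes are 3 at 4 h and 7 at 24 h, with CCL2 at 2.01 and PLAU at -1.02.

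For the 2 genes called with tunicamycin, the genes whose levels followed theirs most closely over the 15 OCI-AML3 libraries were sought by Pearson's r of log2 CPM. For NFKBIE these were TUBB4B (r = 0.976), NDUFB4 (r = 0.973) and COL8A2 (r = 0.971). For CXCL8 they included CD14 (r = 0.986) and H2AC6 (r = 0.984). The libraries share 5 groups, so these values describe likeness across treatment and time and carry no test.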

How the data were processed

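Polyadenylated RNA of 21 cell line libraries was sequenced by the authors, who used STAR, RSEM and the build GRCh38. They deposited unscaled expected counts from RSEM for 60671 genes. RSEM divides reads that align to several genes, so 3.54 to 4.22% of values per library held fractions, and all were rounded. Whether counting used the strand is not given in the sources used here. All 21 columns were mapped to samples by the tags in their titles, and 0 pairs of libraries were identical.

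Tests covered the 14012 genes that reached 1 CPM in 8 or more libraries. The quasi-likelihood test of edgeR 4.0.16 (R 4.3.3) was applied with TMM scaling to all 7 groups in 1 fit, without the replicate number, and p-values were adjusted by Benjamini and Hochberg over all tested genes. A call needed an adjusted p no higher than 0.05 and a log2 fold change farther than 1 from 0. Standard errors were derived from the estimate and its F statistic, and intervals are 95%. Comparisons were tunicamycin against DMSO, their interactions with time and line, and the controls among themselves, 8 in all. On simulated data for the 4 h comparison, 95.5% of 200 changed genes were recovered with 3 false calls among 14012.

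The alternatives were limma voom (limma 3.58.1), DESeq2 1.42.0 by its Wald test, its size factors within edgeR, no TMM, every gene with at least 1 count, 1 CPM in 3 libraries, only the groups compared, a replicate block, no fold threshold, and each library left out in turn. The 10 genes, the lists of pathway genes and markers and the motifs were chosen with earlier results of these data known, and the shorter κB form was settled after a first search of the promoters. Named are the 10 genes, and of the further lists at most the 3 called genes farthest from 0 in each direction. For each of the 10 called with tunicamycin, the 3 genes most alike are named, by log2 CPM with a prior count of 2, except 1 that is not reported here. SOD2 was not matched to the table by its identifier and was not analysed here. Positions are from GENCODE release 44 and promoters from RefSeq, both on GRCh38. Figures were drawn with matplotlib 3.10.9.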

Additional observations from a re-analysis of the deposited data

Results flagged for a closer look

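The effect of tunicamycin differed between 24 h and 4 h in OCI-AML3, by a test of the interaction, for 8 of 9 genes, where 35.3% of all genes passed it. On the log2 scale the difference was -1.27 for RELB, -1.09 for TNFAIP3, -0.75 for NFKB2, -0.57 for NFKBIA, -0.42 for CXCL8, -0.41 for RELA, -0.34 for NFKBIE and -0.29 for NFKB1. Those of NFKBIE and NFKB1 did not pass the test in 14 and 7 of 20 alternatives, and that of CXCL8 in 1, without TMM scaling.

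The effect at 24 h also differed between HEK293T and OCI-AML3 for 3 of the 7 genes measured in both, against 26.8% of all genes, by 1.31 for NFKBIE, 0.92 for RELB and 0.26 for NFKB1. That of NFKB1 did not pass the test in 18 of 20 alternatives and that of RELB in 1. The difference of RELB rests on 17 to 27 counts a library in HEK293T, and nothing is read from it. RELA passed with the replicate block only (adjusted p = 0.0331). Groups of 3 libraries were not searched for outlying libraries.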

How the results depend on the processing

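The counts of called genes stayed within 1.5 times with limma voom, DESeq2, DESeq2 size factors, both other filters, the compared groups alone and the replicate block. With no fold change threshold they were 7 and 6 for tunicamycin in OCI-AML3 at 4 h and 24 h, 2 in HEK293T, 8 for the difference between times, 3 for that between lines and 7 for DMSO at 24 h against 4 h. Without TMM the count for the difference between times was 1, with TNFAIP3 falling short. With a library left out, the count ranged from 1 to 2 for the difference between times (1 without the 24 h tunicamycin replicate 2) and from 1 to 2 for that between lines (2 without the 24 h tunicamycin replicate 1 of OCI-AML3 or the DMSO replicate 1 of HEK293T).

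Estimates that turned sign were all short of the test. Without TMM, NFKB2 was at -0.020 in the difference between lines and RELA at -0.045 in DMSO at 24 h against 4 h. With a library left out, the difference between lines ranged from -0.027 to 0.151 for NFKB2 and from -0.433 to 1.740 for CXCL8, whose 0 to 5 counts a library in HEK293T make this no measurement, and ICAM1 ranged from -0.365 to 0.009 in the difference between times and from -0.360 to 0.015 at 4 h. In DMSO at 4 h against untreated cells the ranges were -0.023 to 0.037 for NFKB2, -0.070 to 0.114 for TNFAIP3 and -0.109 to 0.069 for CXCL8. The cause was not tested.

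After the mean of each gene in its group was taken away, same-numbered tunicamycin and DMSO libraries correlated by -0.139 to 0.132. They share only a number. With the replicate block RELA passed the test of the difference between lines, short of the fold threshold (0.26, adjusted p = 0.0331 in edgeR, 0.0331 to 0.254 over its alternatives). The 9 genes otherwise passed or failed as in the main fit. Without TMM CXCL8 did not pass the test of the difference between times (-0.32, adjusted p = 0.073, 0.00628 to 0.073 over its alternatives). Without TMM the median of all genes for DMSO at 24 h against 4 h moved from -0.02 to -0.14. The share of calls that were higher moved from 57.4 to 70.4% for the difference between times, from 41.5 to 27.0% for that between lines, from 84.0 to 69.8% for DMSO at 24 h against 4 h and from 44.9 to 58.3% for HEK293T against OCI-AML3. With every gene with at least 1 count, 1033, 1401 and 514 genes were called for tunicamycin in OCI-AML3 at 4 h and 24 h and in HEK293T, against 690, 885 and 298, from 31899 tested in place of 14012. Depth limits CXCL2 in every group and CXCL8 and ICAM1 in HEK293T.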
